A study of Mus musculus with 16 samples.

Results

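The CH4 deletion form of spliced MUNC was compared with the intact spliced RNA, nucleotide by nucleotide and helix by helix, in extracted RNA. Members were the nucleotides present in both RNAs, outside the primer sites, with an effective depth of at least 1000 reads in every library used. They numbered 441 of the 491 residues of the CH4 deletion RNA, 249 upstream and 192 downstream of the deleted segment. Residues carry the numbers of the spliced RNA throughout, so that a residue keeps its name in both forms. The 6 libraries used, of 16 in the series, were 2 pairs from spliced MUNC, called replicate 1 and replicate 2, and 1 pair from the CH4 deletion. The 2 libraries of the CH1 deletion RNA, a spliced form that lacks a different segment near the 5′ end and was probed once in extracted RNA, serve as a further reference at named residues and helices. Each pair holds RNA treated with 25 mM 5NIA and RNA treated with DMSO, the solvent. All of it came from C2C12 mouse myoblasts, an established line, made to overexpress one form of the RNA, and it was modified after extraction from the cells, so every RNA of both groups is an overexpressed transcript probed without the proteins of the cell. The labels do not say whether the spliced replicates came from separate cultures, and the CH4 deletion was probed once, so its own spread is not known.

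MUNC is a long non-coding RNA made from the upstream regulatory region of Myod1, the gene of a transcription factor that directs cells into the muscle lineage, and it is known for promoting the expression of myogenic genes. RNAs of this kind fold into helices and loops that can act as separate domains, and a deletion can remove a domain, free its partner strand or let the remaining sequence pair anew. In SHAPE-MaP, 5NIA forms adducts on flexible, mostly unpaired nucleotides and reverse transcriptase writes each adduct as a mutation. The normalised reactivity is the mutation rate with 5NIA minus the rate with DMSO, times 1 factor per profile. High values therefore mark flexible residues and values near 0 constrained ones.

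The deleted segment and its surroundings are printed first, since the junction bears on how residues are matched. The first line is the intact RNA from residue 250 to residue 326 with the deleted segment in capitals, and the second is the same stretch of the CH4 deletion RNA with the retained repeat at the junction in capitals.

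spliced: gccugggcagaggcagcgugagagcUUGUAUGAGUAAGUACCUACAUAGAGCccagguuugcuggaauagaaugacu
CH4 deletion: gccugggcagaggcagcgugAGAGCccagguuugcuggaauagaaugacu

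The 5 bases AGAGC occur at A270 to C274 and again at A297 to C301, so the 27 bases lost can be placed in 6 ways, from A270 to U296 up to U275 to C301. The placement used here, U275 to C301, assigns the retained AGAGC to the upstream copy. Its reactivities in the CH4 deletion RNA were 2.10 at A270, 0.567 at G271, 1.34 at A272, 0.0668 at G273 and 0.252 at C274. They differed from the upstream copy of the 2 spliced replicates by a mean absolute 0.162 and from the downstream copy by 0.212, and the choice of placement changes the match of these 5 residues only.

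In the intact RNA the segment was a reactive stretch. Its mean reactivity was 0.700 in replicate 1 and 0.715 in replicate 2, against 0.482 and 0.477 over the shared residues. Of its 27 residues, 14 reached at least 0.5 in both replicates, a share of 51.9% against 27.7% of the shared residues, and 6 reached at least 1 in both. These 6 were G277, with 1.68 and 1.95 in replicates 1 and 2, A279, with 1.53 and 1.67, A285, with 2.24 and 2.19, A286, with 1.11 and 1.05, A293, with 1.68 and 2.07, and A297, with 2.27 and 2.04. A285 and A286 lie in the loop of the inner hairpin of the spliced model. The least reactive residues of the segment included U292, with 0.0309 and 0.105, and G300, with 0.0520 and 0.0201, both of which are paired in the model. Other residues went the other way. U284 was also low, with 0.0820 and 0.139, but its summed pairing probability was 0.318 in the joined model. A299, with 0.784 and 0.650, and G298, with 1.00 and 0.642, were reactive although paired there, at 0.991 and 0.944. None of the 27 residues differed between the replicates by the size rule used below. In the model of the joined replicates 14 of the 27 had a summed pairing probability of at least 0.5, and 10 did so in the models of both replicates taken separately.

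Depth was uneven. The median effective depth was 185098 with 5NIA and 211893 with DMSO in replicate 1, and 32424.5 and 49558 in replicate 2. The CH4 deletion libraries had 38838 and 27510, and the lowest depth at any of its residues was 8742. The deposited standard error of a reactivity had a median of 0.00977 in replicate 1, 0.0212 in replicate 2 and 0.0220 in the CH4 deletion. These errors cover counting only and were far smaller than most differences between the spliced replicates, whose median absolute value was 0.0851, so the replicates and not the depth set the limit of the comparison. Mean reactivity over the shared residues was 0.493 in the CH4 deletion RNA.

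The profile of the remaining RNA was close to that of the intact form. Across the 441 residues, the CH4 deletion correlated with the mean spliced profile at a Pearson r of 0.944 and a Spearman rho of 0.933. With replicate 1 alone r was 0.914, with replicate 2 alone 0.944, and the 2 spliced replicates correlated at 0.939 with each other. These are descriptions across residues of single RNAs, which are not independent replicates and share their base composition. The value between replicates thus lay between those of the CH4 deletion with each replicate.

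Large differences were few, and against the mean of the spliced replicates all lay downstream of the deletion. A residue was counted under the size rule when its difference from the spliced value was 0.5 or larger and also exceeded both 95% margins of error added together, taken from the deposited standard errors. Against the mean of the spliced replicates, 7 of 441 residues passed (1.59%), 4 higher (0.907%) and 3 lower (0.68%) in the CH4 deletion RNA. None of the 249 upstream residues passed and 7 of the 192 downstream residues did. The same rule applied between the 2 spliced replicates called 11 residues (2.49%), 4 upstream and 7 downstream. That count compares single profiles, and the like comparisons of the CH4 deletion gave 14 against replicate 1 alone (3.17%) and 8 against replicate 2 alone (1.81%), on either side of it. Of these, 2 and 1 lay upstream, A44 and G265 against replicate 1 and G41 against replicate 2. The rule was passed against each of them at 5 residues (1.13%), of which 4 were higher and 1 lower. In the plot of differences along the RNA the left side of the upper panel has no calls, whereas the lower panel has calls on both sides. The upper panel uses the averaged spliced profile and the lower one single profiles. Upstream differences in the upper panel still reached 0.440 at G41 and -0.438 at A28.

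**Figure D1:**
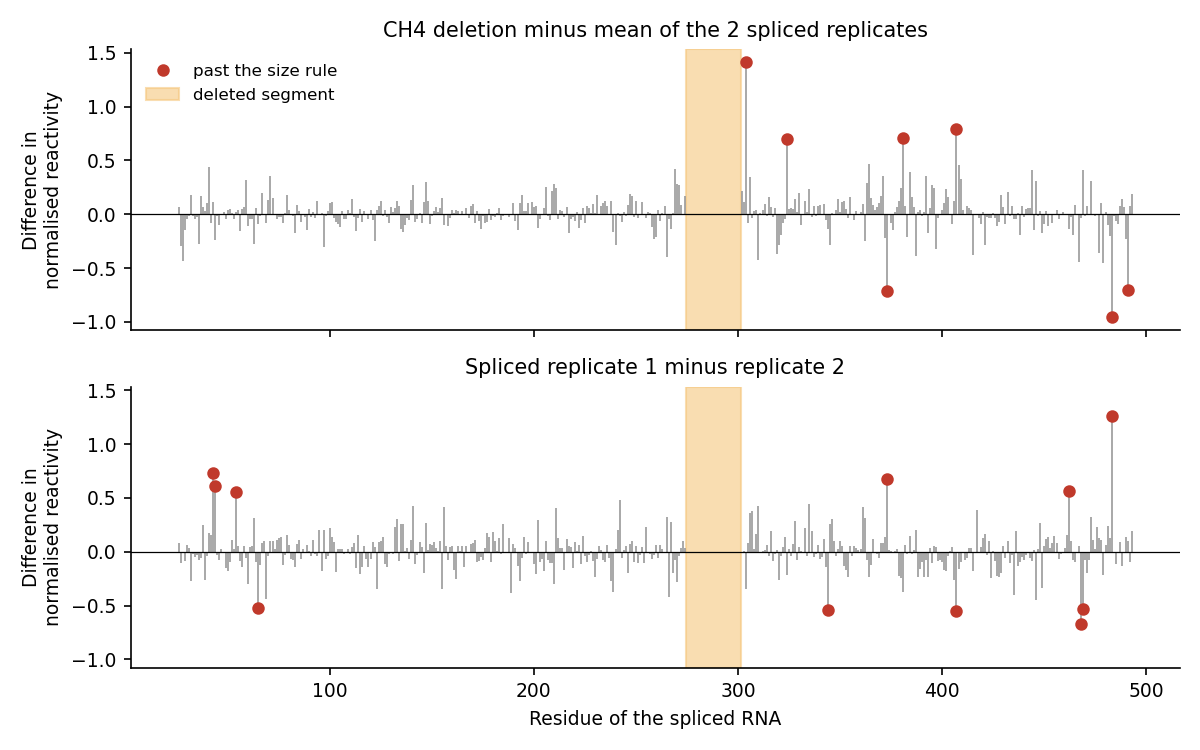
Difference in normalised reactivity at each of the 441 shared residues against residue number of the spliced RNA, for the CH4 deletion minus the mean of the spliced replicates (upper) and spliced replicate 1 minus replicate 2 (lower). Each grey line is 1 residue, red points pass the size rule and the shaded band is the deleted segment; the 7 points of the upper panel lie downstream of it, and the lower panel holds 11 points on both sides.

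The residue that stood furthest apart was A304, 3 residues from the deleted segment. Its reactivity was 0.474 in replicate 1, 0.816 in replicate 2 and 2.06 in the CH4 deletion. The deletion value lay above both spliced values by 1.59 and 1.24, and the CH1 deletion RNA read 0.487 there. The rates behind it were 6.40% with 5NIA in the CH4 deletion, 2508 mutations in 39157 reads (Wilson 95% interval 6.17% to 6.65%), against 1.34% and 3.07% in the spliced libraries. The DMSO rate was 0.217% in the CH4 deletion and 0.0706% and 0.239% in the spliced replicates, so the background of the deletion library lay between those of the replicates. A304 was unpaired in both models, with a summed pairing probability of 0.0272 in the joined spliced model and 0.000117 in the CH4 deletion model.

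A324 read 0.864 and 1.08 in the spliced replicates and 1.67 in the CH4 deletion. A381 read 0.773 and 1.14 against 1.67, and A407 read 1.41 and 1.964 against 2.48. All were above both replicates, and each passed the rule against either one. At A407 the replicates themselves differed by more than 0.5. C491 was the only residue lower than each replicate by the rule, with 1.35 and 1.25 in spliced RNA and 0.602 in the CH4 deletion. Its DMSO rate was 1.43% in replicate 2, and it drops out when residues with a DMSO rate above 1% are left out, which leaves 6 calls. C491 also lies near the last measured residue, 493, with 35288 and 10089 5NIA reads in the spliced replicates and 18861 in the CH4 deletion. In residues 447 to 493 the rule called 2 residues against the mean spliced profile and 4 between the replicates.

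The other 2, A373 and A483, rest on replicate 1. A373 read 2.06 in replicate 1, 1.38 in replicate 2 and 1.01 in the CH4 deletion, and the difference from replicate 2 alone was -0.374. A483 read 1.78, 0.522 and 0.193 in the same order, and the difference from replicate 2 alone was -0.329. Both residues also pass the rule between the replicates. The CH1 deletion RNA was low at both as well, at 0.905 and 0.221, and at C491 it read 0.801. Of the 7 residues, 6 were A, a base that made up 125 of the 441, and 10 of the 11 residues called between the spliced replicates were A too. The residues just outside the rule were A364, with a difference of 0.471, A408, with 0.459, and A479, with -0.454, and the smallest difference inside it was 0.698, at A324.

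**Figure D2:**
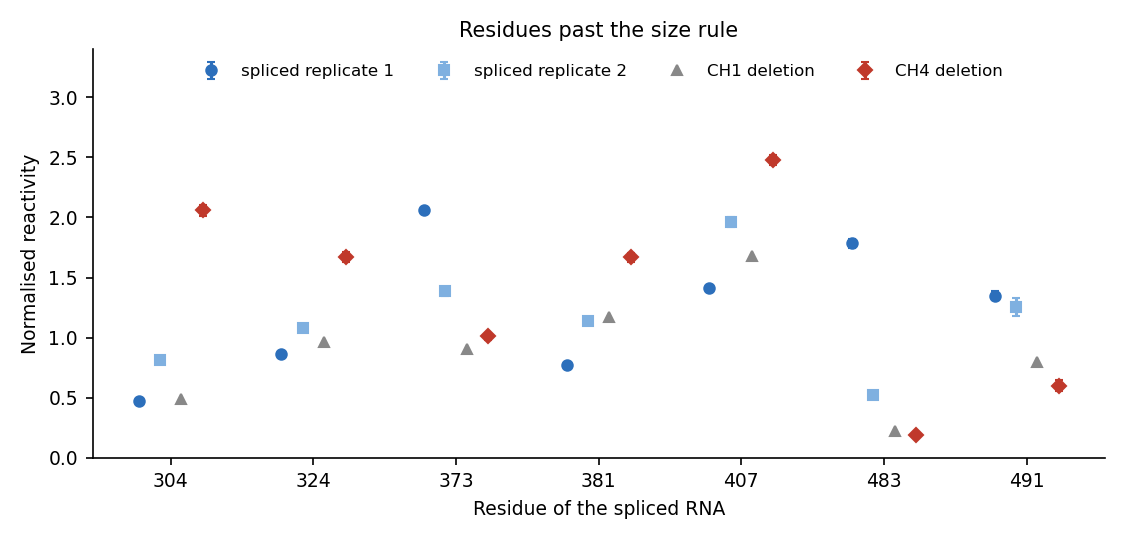
Normalised reactivity of the 7 residues past the size rule in spliced replicates 1 and 2, the CH1 deletion and the CH4 deletion; bars are deposited standard errors, which are mostly smaller than the symbols. A304 is 2.06 in the CH4 deletion and at most 0.816 in the other profiles, whereas at A483 the CH4 deletion, with 0.193, lies near replicate 2, with 0.522, and far from replicate 1, with 1.78.

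Replicated tests were limited by the single CH4 deletion pair, whose spread has to be assumed equal to that of the spliced pairs. With 1 profile against 2, an exact permutation test of a single residue cannot fall below p = 0.333. On mutation counts, edgeR's quasi-likelihood test of the interaction between RNA and reagent, relative to its median over residues of -0.21 on the log2 scale, called 0 of 441 residues at an adjusted p under 0.05 (0%). It also found 0 at an unadjusted p under 0.05, and DESeq2 called 0 with 2 at an unadjusted p under 0.05. The median standard error of the interaction was 1.42 on the log2 scale, so only changes of many fold could have been called.

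The limma test on normalised reactivity called 5 residues at an adjusted p under 0.05 (1.13%), and 34 had an unadjusted p under 0.05. They were A304, higher by 1.41 (SE 0.263, limma adjusted p = 5.36e-05), A483, with a difference of -0.960 (limma adjusted p = 0.00131), G444, higher by 0.414 (limma adjusted p = 0.00852), C122, with a difference of -0.253 (limma adjusted p = 0.010), and G63, with a difference of -0.278 (limma adjusted p = 0.0262). With 1 residual degree of freedom the fit took each residue's error from a trend on the mean level and not from that residue's own replicates. At A483 the error from its own 2 replicates was 1.09 against 0.209 in the fit, and at G63 it was 0.268 against 0.0763, so these calls do not carry the spread seen at those residues. With the CH1 deletion profile added to the fit, A304, A483 and G444 remained and C122 and G63 did not. G444 read 0.110 and 0.198 in the spliced replicates and 0.568 in the CH4 deletion, above both, whereas C122 and G63 were slightly negative in the CH4 deletion, with -0.129 and -0.0551.

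Distance from the deletion was examined next. Within 50 residues of the segment on either side, 2 of 100 residues passed the rule, A304 and A324, and 5 of 341 passed beyond that distance. The median absolute difference from the mean spliced profile was 0.0757 near and 0.0610 far. Between the replicates the same medians were 0.0660 near and 0.0893 far, so the order of near and far was turned in the background. In the first 25 residues downstream the median absolute difference was 0.110 from replicate 1 and 0.113 from replicate 2, against 0.0404 between the replicates. In the first 25 residues upstream it was 0.0963 and 0.0858 against 0.0615. From 51 to 100 residues downstream it was 0.132 and 0.0921 against 0.0836, and there the median from the mean spliced profile, 0.101, was above the 0.0827 of the first 25. Pearson r with the mean spliced profile was 0.917 near and 0.951 far.

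At the junction itself the 3 residues after the deleted segment were all higher in the CH4 deletion RNA. C302 read 0.120 and 0.127 in the spliced replicates and 0.335 in the CH4 deletion, and C303 read 0.171 and 0.167 against 0.281. Together with A304 these lie above both replicates. G305, the first base of the helix that follows, was 0.328 and 0.242 in spliced RNA and 0.203 in the CH4 deletion, and G306 was 0.366 and 0.00710 against 0.535. On the upstream side A270, G271, A272 and C274 were above both replicates by between 0.0658 and 0.424, and G273 lay between them. This direction depends in part on the placement. Against the downstream copy, A270 lay between the replicates, with 2.27 and 2.04, and G271 was below both, with 1.00 and 0.642. A272, with 0.784 and 0.650, G273, with 0.0520 and 0.0201, and C274, with 0.139 and 0.166, were above both. A272 then passes the rule, which makes 8 calls in all. G265, 10 residues upstream of the segment, went the other way, with 1.17 and 0.844 in spliced RNA and 0.603 in the CH4 deletion.

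The deposited pairing models give each pair of residues a probability. The folding program is not given in the sources used here. The labels call the models SHAPE-based, so they are taken as made with the same reactivities and are a second view of these profiles, not independent support for them. A helix was taken as a run of at least 3 pairs with a probability of at least 0.5 and at most 1 unpaired residue per strand between neighbouring pairs. By this rule the joined spliced model held 23 helices and the CH4 deletion model 22. Of the 23, 17 were kept, 2 were removed with the segment and 4 were lost, and 6 helices of the CH4 deletion model were new.

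The models of the 2 spliced replicates also differ from each other. Going from replicate 1 to replicate 2, 21 helices were kept, 5 were lost and 3 were new, and in the other direction 3 were lost and 5 were new. Single replicate models against the CH4 deletion gave more, 7 lost and 5 new from replicate 1 and 6 lost and 6 new from replicate 2, with 17 kept in each. Of the pairs with a probability of at least 0.5 that do not touch the segment, the joined spliced model and the CH4 deletion model shared 89, which is 80.9% of the spliced and 71.8% of the CH4 deletion pairs. The replicate models shared 109, or 79.0% and 85.2%. Taken singly they shared less with the CH4 deletion, 71.5% and 75.0% for replicate 1 and 73.0% and 71.8% for replicate 2. A residue's paired state, meaning a summed probability on either side of 0.5, differed at 36 of 441 residues between the joined spliced and the CH4 deletion model (8.16%) and at 36 of 441 between the replicate models (8.16%).

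**Figure D3:**
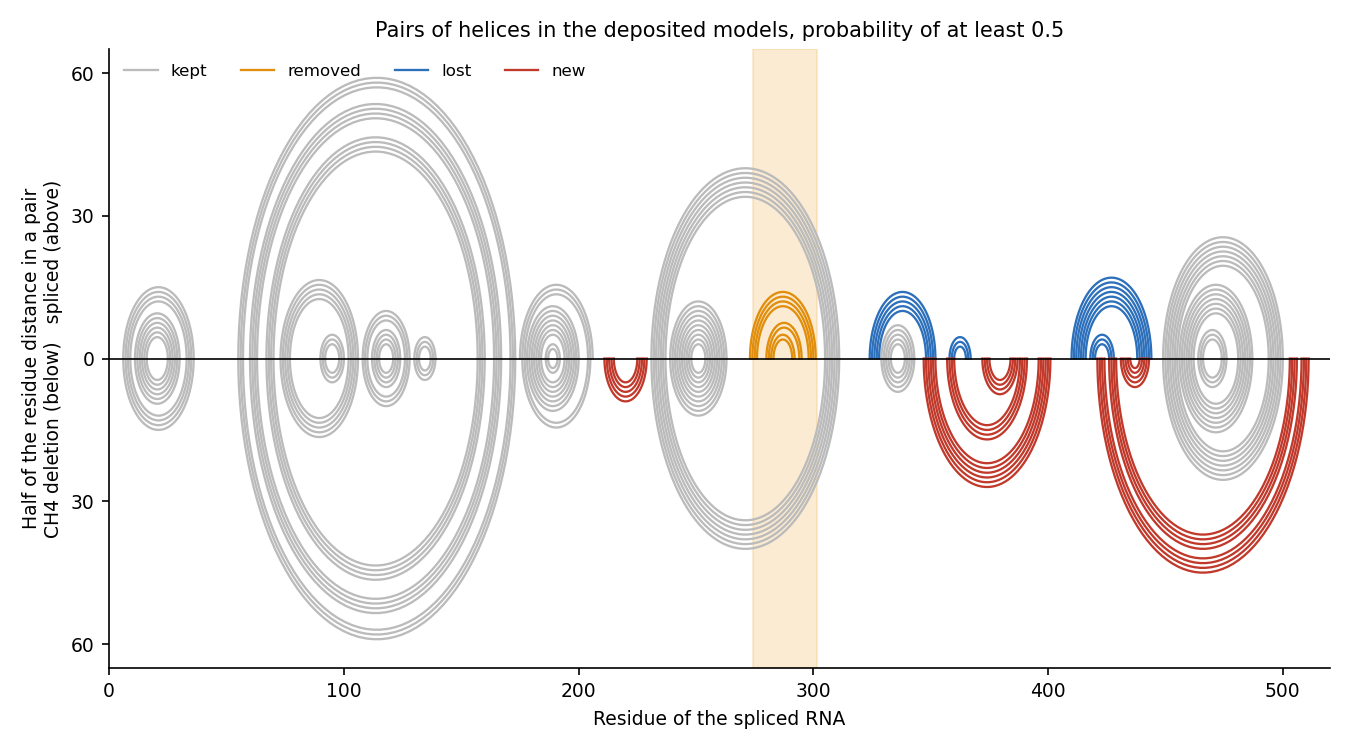
Pairs of the helices in the joined spliced model (above the line) and the CH4 deletion model (below), drawn as arcs between residue numbers of the spliced RNA; the height of an arc is 0.5 times the distance between its residues. Grey helices (17) are kept, orange (2) removed with the shaded segment, blue (4) lost and red (6) new; the upstream part holds the same helices above and below but for 1 new hairpin.

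The removed structure was a hairpin with an internal loop. Its outer helix joined G273 to U276 with G298 to C301, with a mean pair probability of 0.975 in the joined model, 0.945 and 0.985 in the replicate models and 0.847 in the CH1 deletion model. Its inner helix joined 280 to 283 with 291 to 295 at 0.661, with 0.721 and 0.598 in the replicate models and 0.502 in the CH1 deletion model. Only 2 of its 4 pairs reached 0.5 in the models of replicate 2 and the CH1 deletion, so it falls below the helix rule in both. The hairpin is printed with the outer strands in capitals, and the inner one below it in the same way. A293, in the middle of CUACA, is in capitals but unpaired, with a summed pairing probability of 0.0175 in the joined model.

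outer: GCUUguaugaguaaguaccuacauaGAGC
inner: UGAGuaaguacCUACA

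The outer helix used G273 and C274, which remain in the CH4 deletion RNA. In its model both were still paired, with summed probabilities of 0.995 and 0.992, but to other partners. G273 paired with C266 at a probability of 0.980 and C274 with G265 at 0.977, against 0.00678 and 0.00667 in the joined spliced model, where their partners were C301 and G300. This stack has 2 pairs and so falls below the helix rule. G265 and C266 went from summed probabilities of 0.00770 and 0.00703 to 0.977 and 0.980. G265 was less reactive in the CH4 deletion than in either spliced replicate, whereas C266, with 0.802, lay between 0.639 and 1.06. Of their partners, G273, with 0.0668, lay between 0.117 and 0.0139, and C274, with 0.252, was above 0.100 and 0.0685. The 4 residues of this stack thus did not move in 1 direction.

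The helices around the deletion were kept. The helix of residues 231 to 237 with 305 to 311 spans the segment and closes it at the base, and its mean pair probability was 0.951 in the joined spliced model and 0.989 in the CH4 deletion model. Its strands are GCAAACC and GGUUUGC. The nearest hairpin upstream, 239 to 248 with 254 to 263, had 0.997 in both models, and the nearest downstream, 329 to 333 with 339 to 343, had 0.981 and 0.959. Both are printed with the paired strands in capitals.

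upstream hairpin: GCCUCUGCUUugccuGGGCAGAGGC
downstream hairpin: UAGCAcauuuUGCUA

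Of the 17 kept helices 12 lay upstream, 1 spanned the segment and 4 lay downstream, and 13 had a higher mean probability in the CH4 deletion model. Their mean probabilities there ran from 0.536 to 1.00, and in 16 of them every pair stayed at or above 0.5. A483 lies in one of them, residues 456 to 462 with 481 to 487, where the probability was 0.996 in the joined spliced model, 0.928 in that of replicate 1 and 1.00 in that of the CH4 deletion. Some kept helices were measured on part of their residues only. Those of 6 to 9 with 33 to 36, 11 to 16 with 25 to 30 and 449 to 455 with 494 to 500 each have a strand without reactivity, in a primer site.

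The models differed most between residues 323 and 410, a stretch that starts 22 residues beyond the segment. In the window from 51 to 100 residues downstream the mean absolute change of summed pairing was 0.247, against 0.161 between the replicate models and 0.0779 over all 441 residues. Near and far from the segment as a whole the values were 0.0695 and 0.0804, but this order turned with the model of replicate 1, at 0.0995 and 0.0888, with near taken as 25 residues, at 0.0889 and 0.0765, or 100, at 0.120 and 0.0432, and with the other placement, at 0.0992 and 0.0774. In residues 323 to 410, a window drawn after the helices had been seen, 9 of 88 residues became unpaired and 11 became paired, against 16 that differed between the replicate models. The stretch is printed with the strands of the outermost new helix there, 347 to 352 and 396 to 401, in capitals.

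residues 323 to 410: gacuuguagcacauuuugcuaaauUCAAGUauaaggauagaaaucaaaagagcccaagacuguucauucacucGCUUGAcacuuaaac

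In intact RNA the 3′ part of that first strand, CAAGU, paired with ACUUG at residues 324 to 328, closing the downstream hairpin shown above. This helix had a mean probability of 0.989 in the joined model, 0.992 and 0.983 in the replicate models and 0.987 in the CH1 deletion model, but 0.376 in the CH4 deletion model. The second lost helix, 358 to 360 with 365 to 367, went from 0.898 to 0.339, with 0.936, 0.871 and 0.908 in replicates 1 and 2 and the CH1 deletion. Both thus stood at 0.871 or above in the 2 replicate models, which are of 1 RNA, and in the CH1 deletion model. They fell below 0.5 in the CH4 deletion model, which comes from 1 profile.

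In their place the CH4 deletion model held 3 new helices that are almost absent from the others. The pairing of UCAAGU, 347 to 352, with GCUUGA, 396 to 401, had 0.597 against 0.00336 in the joined spliced model. The pairing of GGAU, 357 to 360, with AUUC, 388 to 391, had 0.542 against 0.00361. The pairing of GAGC, 372 to 375, with GUUC, 384 to 387, had 0.824 against 0.0337, with 0.0105 and 0.154 in the replicate models. In the CH1 deletion model these were 0.00131, 0.00158 and 0.00390. The 3 new helices lie one inside the other, and together they exclude both lost helices, since residues 348 to 352 and 358 to 360 serve in a helix of each kind. Residues 348 to 352 thus stayed paired in both models, with summed probabilities from 0.922 to 1.00, and only the partner changed, whereas 324 to 328 went from at least 0.960 to between 0.330 and 0.577.

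**Figure D4:**
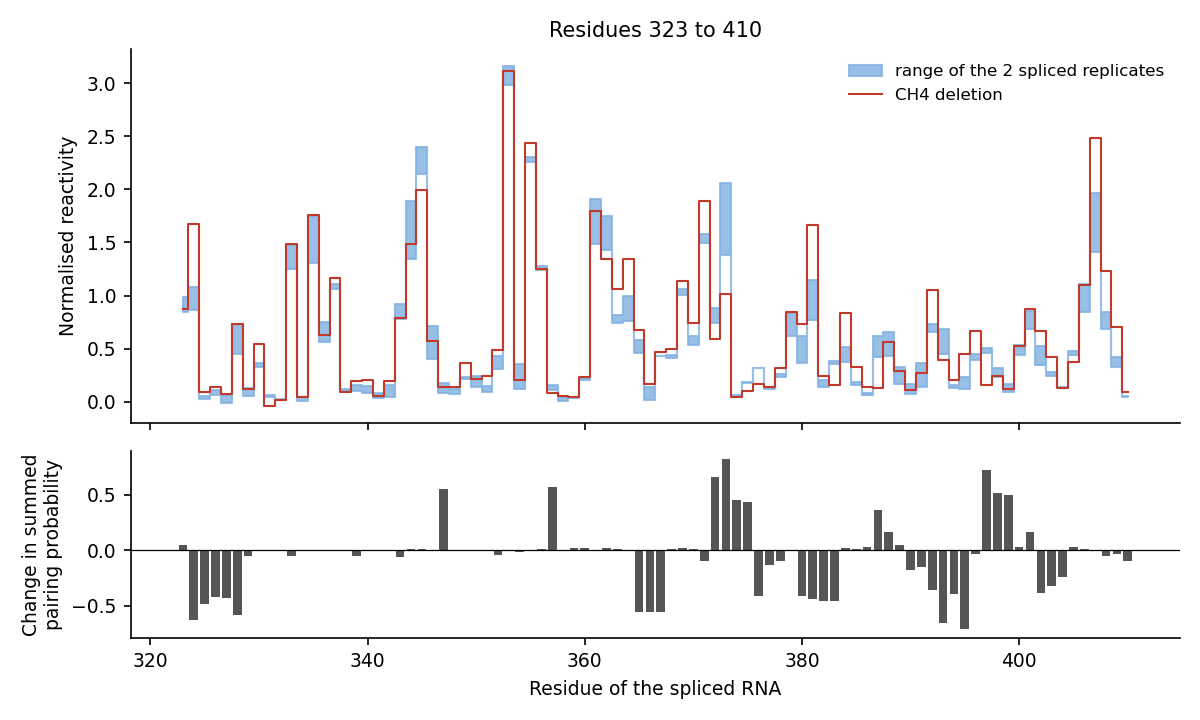
Normalised reactivity of residues 323 to 410 (upper), with the range of the 2 spliced replicates as a blue band and the CH4 deletion as a red line, and the change in summed pairing probability from the joined spliced to the CH4 deletion model (lower). The red line stands above the band at A324, A381 and A407 and below it at A373 and C397, and pairing falls at 324 to 328 and rises at 372 to 375 and 397 to 399.

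The reactivities of the strands moved in part with the models. All 10 measured residues of the first lost helix were higher in the CH4 deletion than the mean spliced value, and its mean was 0.416 against 0.280 and 0.267 in the replicates. Over the 441 residues 54.0% were higher, and in residues 323 to 410 as a whole 61 of 88 (69.3%). A324 contributed the largest difference. Of the other residues of the freed strand, C325, U326 and U327 stayed low, at 0.0959, 0.142 and 0.0739, and G328 read 0.729 against 0.732 and 0.450. All 6 residues of the second lost helix were higher as well, with a mean of 0.273 against 0.224 and 0.212. The CH1 deletion RNA, whose model holds both helices, had means of 0.337 and 0.288 there. These also lay above both replicates, so a rise of this kind is not particular to the CH4 deletion. In the new helices, A373 and C397 were lower than in either replicate, C397 with 0.156 against 0.508 and 0.460, and C387 read 0.130 against 0.623 and 0.421. G384 and G396, in the same helices, were higher than the mean spliced value by 0.393 and 0.248. In the 3 new helices between residues 347 and 401, 9 of 12, 6 of 8 and 3 of 8 residues were higher than the mean spliced value, and the means did not move in 1 direction. The mean over the 12 residues of the helix joining 347 to 352 with 396 to 401 was 0.349 against 0.301 and 0.319, and that of the helix joining 357 to 360 with 388 to 391 was 0.207 against 0.161 and 0.235. At 372 to 375 with 384 to 387 the mean was 0.399 against 0.572 and 0.424. Since the models are taken as made with these values, the counts describe the models and do not test them.

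The other lost and new helices changed by less between the joined spliced and the CH4 deletion model. The helix of 410 to 416 with 438 to 444 went from 0.717 to 0.455, with 0.962 in the CH1 deletion model, and that of 418 to 420 with 426 to 428 from 0.551 to 0.407, with 0.485 in replicate 2, where it was below the limit as well. The new helix of 421 to 429 with 503 to 511 rose from 0.263 to 0.537, but its 3′ strand lies in the primer site and has no reactivity. The new helix of 431 to 435 with 439 to 443 went from 0.261 to 0.518. The only new helix upstream, 211 to 215 with 225 to 229, had 0.713 against 0.450, and at 0.574 in the model of replicate 1 it is not particular to the deletion RNA. At a pair probability of at least 0.8 in place of 0.5, 1 helix was new, the one of 372 to 375 with 384 to 387, and 3 were lost, those of 324 to 328, of 358 to 360 and of 55 to 57 with 171 to 173.

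**Figure D5:**
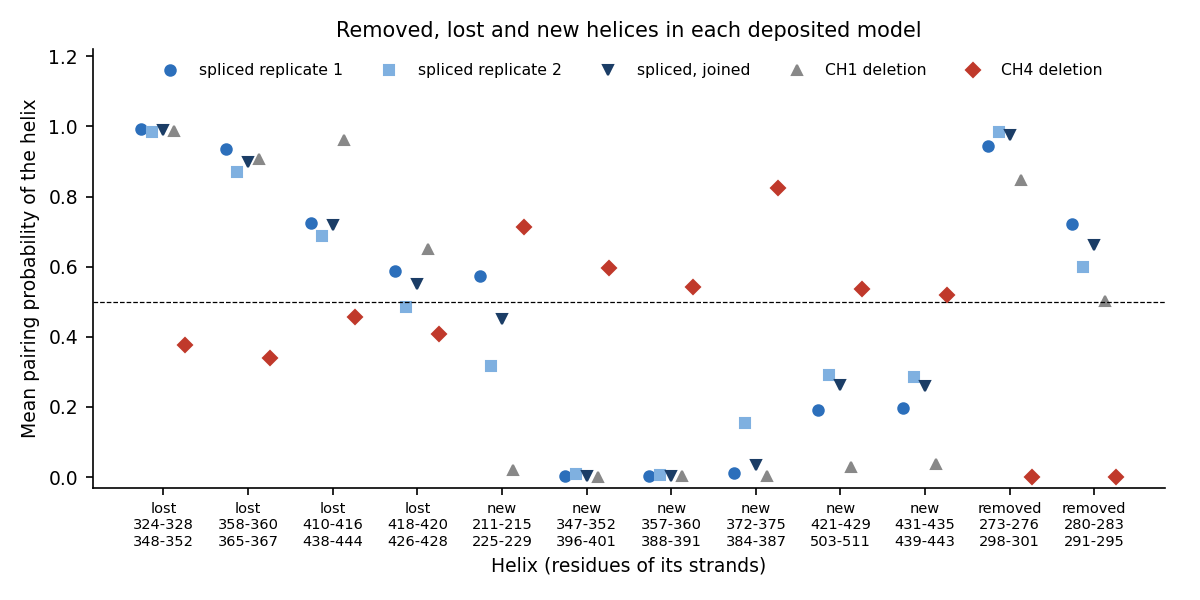
Mean pair probability of each lost, new and removed helix in the deposited models of spliced replicates 1 and 2, the joined replicates, the CH1 deletion and the CH4 deletion; the dashed line is the limit of 0.5 and the strands are given by residue number. The first 2 lost helices are at 0.871 or above in the other 4 models and at most 0.376 in the CH4 deletion, and the new helices of 347 to 401 and 357 to 391 are at most 0.00754 elsewhere.

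RNAfold was then run on each sequence without reactivities, with its own and with those of the other RNA. These runs were one model each, with no error. Folded from sequence alone, the intact and the deletion RNA shared 22 helices, with 1 removed and 0 lost or new. The first lost helix had a mean probability of 0.866 in the intact and 0.867 in the deletion RNA, and the new helix of 347 to 352 with 396 to 401 had 0.00255 and 0.00217. With each RNA's own reactivities as pseudo-energies 16 helices were kept, 5 were lost, 2 were removed and 8 were new, and these 2 helices had 0.991 and 0.259, and 0.00147 and 0.712. The second lost helix and the new ones of 357 to 391 and 372 to 387 moved likewise, to 0.224, 0.715 and 0.816. The helices of 410 to 416 and 418 to 420 were not lost, with 0.871 and 0.791, and 0.677 and 0.707. Those of 421 to 429 and 431 to 435 stayed under 0.5, at 0.203 and 0.202 in the deletion RNA. The kept helices of 73 to 77 and 108 to 115 had 0.118 and 0.176 there. RNAfold thus did not return all of the deposited helices. When the intact sequence was folded with the CH4 deletion reactivities, the first lost helix and the new helix of 347 to 352 again had 0.259 and 0.712. The segment itself carried its spliced values in that run. Both sequences folded with the spliced reactivities gave 0.991 and 0.00114 in the deletion RNA. In RNAfold the rearrangement between 323 and 410 thus appeared with the CH4 deletion reactivities on either sequence and not with the spliced ones. The CH4 deletion reactivities were measured on the RNA that lacks the segment, so the swap cannot tell the deletion apart from its profile. Whether the segment bears on the rearrangement was not tested.

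Values were also swapped back in RNAfold, an alternative chosen after the helices had been seen. With the mean spliced reactivity put in at the 7 residues past the size rule, the first lost helix rose from 0.259 to 0.798 and that new helix fell from 0.712 to 0.184. With spliced values at the 88 residues from 323 to 410 they were 0.990 and 0.00226, and with spliced values at the 353 residues outside that stretch they were 0.341 and 0.630. Single residues, scanned one at a time after the same result, moved the balance by smaller steps. The new helix had 0.447 with the spliced value at C397, 0.498 with that at A373, 0.540 at A324 and 0.611 at A381. C397 differed by less than the size rule, and A373 is one of the residues at which the replicates disagree. In RNAfold the balance between the 2 arrangements thus shifted with the reactivities put in. The residues and the window were chosen from these same data, so the swaps describe this 1 profile and do not test what its model rests on. Whether the switch would recur in a second CH4 deletion profile was not tested.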

How the data were processed

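The authors deposited, per the file headers, the count of mutations and the effective depth of each nucleotide in the 5NIA and DMSO libraries, the mutation rate as a fraction, and the normalised reactivity with its standard error, a score on an arbitrary scale. The deposited pairing models hold −log10 of the probability of each pair. The aligner, the profiling and folding programs and their settings are not given in the sources used here. Residues U275 to C301 of the spliced RNA were taken as deleted and later residues shifted by 27. Upper-case residues with an effective depth of at least 1000 in all 6 libraries were kept, and the reactivities were used as deposited.

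Mutation counts were tested with edgeR 4.0.16 (quasi-likelihood, log depth as offset), with DESeq2 1.42.0 as an alternative, and reactivities with limma 3.58.1 with a mean trend, all with Benjamini-Hochberg adjustment over 441 residues. Both tests were tested on simulated data, where each made false calls and edgeR missed nearly all small changes, after which larger ones were simulated too. RNAs were refolded with RNAfold (ViennaRNA 2.7.2) with Deigan pseudo-energies (slope 1.8, intercept -0.6). Wilson intervals are at 95% and cover counting error only. P-values measure only the spread between these libraries, which may be technical.

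Residues named were the 5 largest rises and falls past the size rule, those past it against each replicate, those past a test at an adjusted p of 0.05, the 5 measured residues on each side of the junction, and those of the segment. Helices named were all removed, lost and new ones and the nearest kept ones. Other residues of the rearranged stretch, G265 and C266 were named after their values were seen. The members, rules and lists were chosen with earlier results of these data known. The residue windows, the swapped reactivities and the single-residue scan were added after the data had been seen.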

Additional observations from a re-analysis of the deposited data

How the results depend on the processing

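Residues past the size rule numbered 33 at a minimum difference of 0.3 and 1, A304, at 1.0, and ran from 8 to 14 with 1 spliced replicate left out, the higher count against replicate 1 alone. For the medians near and far, "unchanged" was set as within the SD of the 2 single-replicate values, which is so narrow that nearly every alternative moved them. A wider SD that included the replicate-to-replicate value was also tried, after the first had been seen, and was not used. The near and far median absolute differences ran from 0.0885 to 0.0905 and from 0.0775 to 0.0776 with 1 replicate left out. They were 0.0787 and 0.0627 with near as 25 residues, 0.0686 and 0.0580 with 100, 0.0698 and 0.0577 at an equal mean, and 0.0741 and 0.0603 with the deletion placed 5 residues upstream, so near stayed above far in each. The order of the pairing changes did not hold. Near and far were 0.0995 and 0.0888 with the model of replicate 1, 0.0697 and 0.0879 with replicate 2, and 0.0810 and 0.0829 with their mean. They were 0.0889 and 0.0765 with near as 25 residues, 0.120 and 0.0432 with 100, and 0.0992 and 0.0774 with the other placement. Lost helices were 7 against the model of replicate 1. At a probability of at least 0.8, 1 was removed and 1 was new, and against replicate 2, 1 was removed. RNAfold without reactivities gave 0 lost, 1 removed and 0 new. In 2 runs added after the data had been seen, the spliced reactivities on both sequences gave 2 lost and 0 new, and the spliced sequence under either set gave 0 removed. Pearson r ran from 0.914 to 0.944 with 1 replicate left out. The limma count was 3 with the CH1 deletion profile in the fit. With the replicate block, in which the 5NIA and DMSO libraries of 1 pair share a block, edgeR called 0 residues and 2 had an unadjusted p under 0.05; the libraries share only a number, and their deviations correlated at 0.30. The single CH4 deletion pair and the difference between the spliced replicates limit these values. A depth of at least 10000 was tried for the size rule and its residues alone and left 7 calls.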
